A study of Mus musculus with 8 samples.

Results

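Cardiac ion channel and pacemaker genes were followed in hearts taken at E18.5, late in gestation, from mouse embryos with reduced Lsd1. The set holds 30 named genes of 9 channel classes, chosen by their symbols and the channel class they belong to, with earlier results of these data known. Of these, 29 had a probe set annotated to them alone on the Affymetrix Mouse430 array, out of 18194 such genes in all. The exception was *Hcn4*, the main pacemaker channel of the sinoatrial node, for which no such probe set was found in the annotation used here.

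RNA of 3 2lox/2lox hearts and 5 wild-type hearts was hybridized, 1 heart to an array. The 2lox/2lox embryos were homozygous for a floxed allele of *Aof2* (*Kdm1a*), the gene of the histone demethylase Lsd1, that had not been recombined and carries point mutations in the tower domain of the protein. The labels call this genotype a knock-out, yet no Cre was used and the mutated protein is still made. The wild-type hearts came from littermates, and which hearts shared a litter, the strain and the sex of the embryos are not stated in the sources used here.

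The contraction of the heart is timed by currents through ion channels in the cardiomyocyte membrane. Pacemaker channels and calcium channels drive the slow depolarization of nodal cells, sodium and calcium channels carry the upstroke and plateau of the action potential, and several families of potassium channels return the membrane to rest and hold it there. The fetal heart makes channels that are largely lost from the adult ventricle, among them T-type calcium channels.

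The values were log2 expression levels, and a difference is given as 2lox/2lox minus wild-type throughout. *Kdm1a* measured 9.44, 9.53 and 9.55 in 2lox/2lox hearts, against 10.36, 10.34, 10.29, 10.32 and 10.26 in wild-type hearts. Its difference of -0.81 ± 0.06 (SE) passed the test (limma, adjusted p = 0.000515), and no 2lox/2lox heart reached the wild-type range. The cardiomyocyte markers were bright in every heart, the dimmest of the 9, the calcium release channel *Ryr2*, lying between 10.26 and 10.68 in 2lox/2lox hearts and between 10.17 and 10.55 in wild-type hearts. The difference between the 3′ and 5′ control probe sets of *Actb* and *Gapdh*, which widens as RNA degrades, was 0.52, 0.50 and 0.33 in 2lox/2lox hearts 1, 2 and 3, against 0.32 to 0.38 in wild-type hearts. Thus 2lox/2lox hearts 1 and 2 stood apart from the other 6 hearts in this measure, and 2lox/2lox heart 3 lay within the wild-type range.

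None of the 29 measured channel genes passed an adjusted p of 0.05, with 0 higher and 0 lower, where 0.0798% of all 45101 probe sets and 0.148% of all genes did (limma, Benjamini-Hochberg adjustment over all probe sets). At an unadjusted p under 0.05 there were 8 of 29 (27.6%), beside 10.2% of all genes. Of these, *Kcnk3*, *Cacna1h*, *Cacna1g* and *Kcnh2* were higher in 2lox/2lox hearts, and *Kcnd2*, *Kcna5*, *Kcnj3* and *Cacna1d* were lower. The background was 5.82% of all genes higher and 4.41% lower. The groups did not overlap for 3 of 29 genes (10.3%), namely *Kcnd2*, *Kcnj3* and *Kcnk3*, beside 5.97% of all genes (3.16% higher and 2.81% lower). No p-value was computed for the set, and the other genes were not matched to it in brightness. The set was also chosen with earlier results of these data known.

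**Figure D1:**
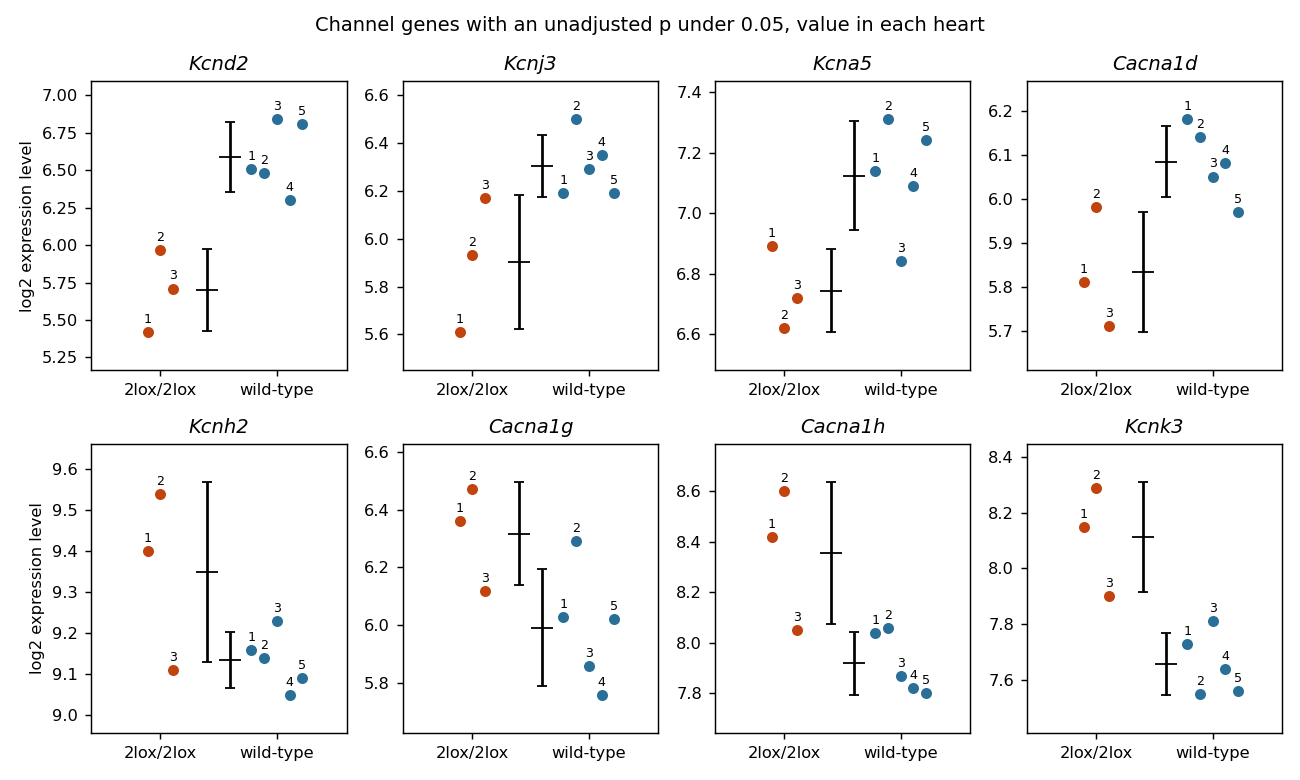
Log2 expression level (y axis of each panel) of the 8 channel genes with an unadjusted limma p under 0.05, with 2lox/2lox hearts (n = 3) on the left and wild-type hearts (n = 5) on the right of each panel. Points are single hearts with their numbers and bars are the mean ± SD. For *Kcnd2*, all 2lox/2lox hearts lie at or under 5.97 and all wild-type hearts at or above 6.30, whereas for *Kcna5* the highest 2lox/2lox heart reaches 6.89, above the lowest wild-type heart at 6.84.

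The differences over the 29 genes ran from -0.89 to 0.46, with 13 above 0 and 16 below 0. Their median was 0, as it was over all genes, and the median of their absolute size was 0.13, against 0.07 over all genes. Only *Kcnd2* differed by more than 0.5, beside 149 of all 18194 genes. Of the 29 intervals at 95% confidence, 21 spanned 0 and 19 lay wholly between -0.5 and 0.5. The spread between hearts was of similar size in the groups, with a median SD of 0.14 among 2lox/2lox hearts and 0.15 among wild-type hearts. Whole hearts were measured, so fewer cells of a type and less RNA per cell cannot be told apart for any of these values.

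**Figure D2:**
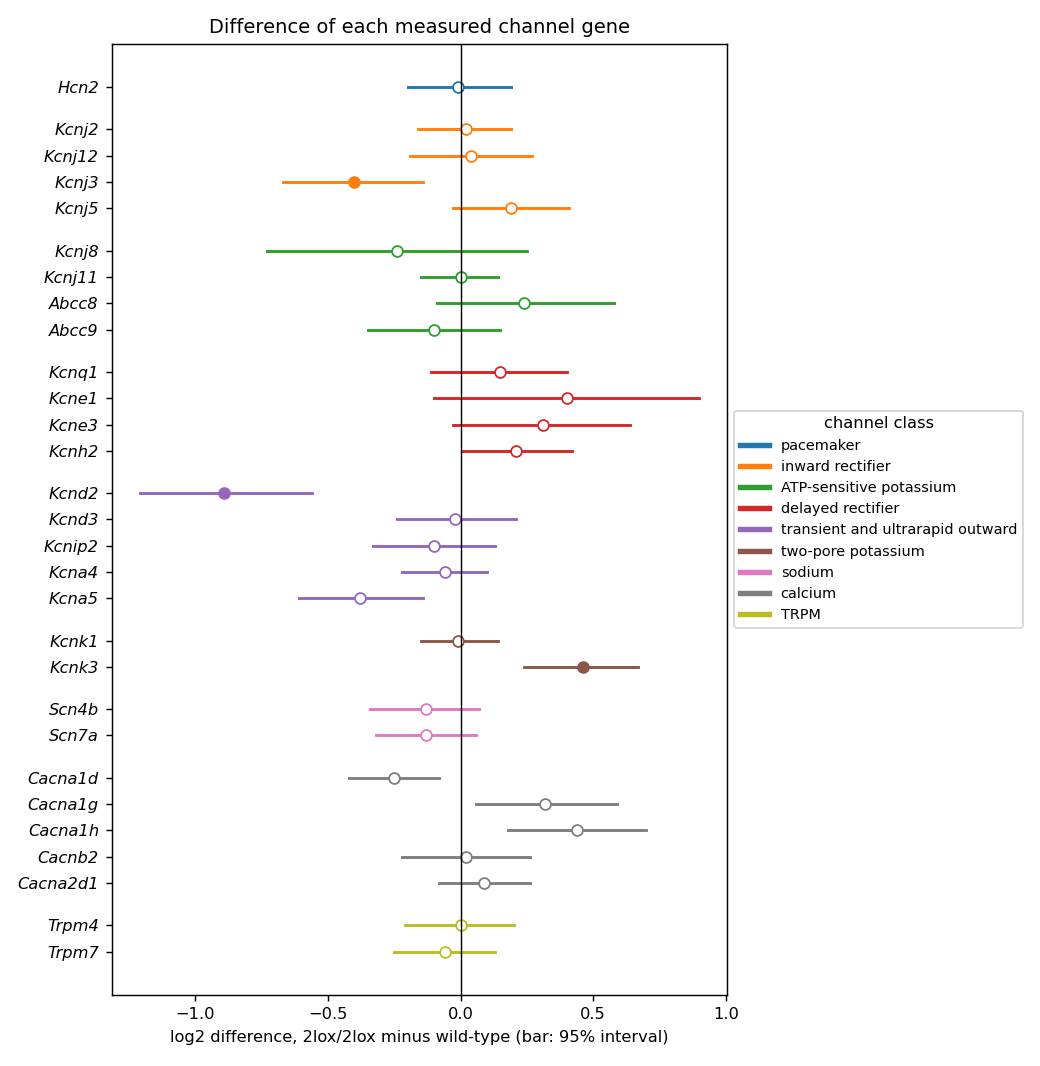
Log2 difference between 2lox/2lox and wild-type hearts (x axis) for the 29 measured channel genes, grouped by class, with 95% intervals of the limma fit. Filled points mark genes whose groups do not overlap. The points of the transient and ultrarapid outward class all lie below 0, led by *Kcnd2* at -0.89. Those of the delayed rectifier class all lie above 0, between 0.15 and 0.40. Within these classes, only the intervals of *Kcnd2*, *Kcna5* and *Kcnh2* do not span 0.

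Transient and ultrarapid outward potassium channels open at the start of the action potential and shape its early repolarization. *Kcnd2* encodes a pore subunit of the fast transient outward current and had the largest difference of the channel genes in size. It measured 5.42, 5.97 and 5.71 in 2lox/2lox hearts, against 6.51, 6.48, 6.84, 6.30 and 6.81 in wild-type hearts. Every 2lox/2lox heart lay below every wild-type heart, the closest being 2lox/2lox heart 2 and wild-type heart 4. The difference was -0.89 ± 0.15 (SE), with an interval of -1.21 to -0.56, or 0.54-fold, and did not pass the test (limma, adjusted p = 0.0874). Among the 29 genes it was the only one with an adjusted p at or under 0.1.

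*Kcna5* encodes the channel of the ultrarapid current, which in many mammals is strongest in the atria. It measured 6.89, 6.62 and 6.72 in 2lox/2lox hearts, against 7.14, 7.31, 6.84, 7.09 and 7.24 in wild-type hearts. The groups overlapped through 2lox/2lox heart 1 and wild-type heart 3 alone. The difference was -0.38 ± 0.11 (SE), or 0.769-fold (limma, adjusted p = 0.264).

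The other 3 genes of the class also had values below 0, and none came near the test. *Kcnd3*, another pore subunit of the fast current, averaged 5.36 ± 0.25 in 2lox/2lox hearts and 5.37 ± 0.09 in wild-type hearts (SD, n = 3 and n = 5), a difference of -0.02 with an interval of -0.24 to 0.21. *Kcnip2*, the accessory subunit that carries these pore subunits to the membrane, had a difference of -0.10 (interval -0.33 to 0.13). *Kcna4*, the pore subunit of the slow transient current, had a difference of -0.06 (interval -0.22 to 0.10). The low values of the class thus lay in *Kcnd2* and *Kcna5*.

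Promoter sequences are shown for 4 of the 8 genes with an unadjusted p under 0.05, to give the letters in front of these transcripts. The 4 were picked by name, and 1 promoter of each is shown, from the RefSeq table used here (GRCm38.p6). Each is the run of 250 bases before the annotated start, in the direction of transcription, at chr6:21215096-21215345 (plus strand) for *Kcnd2*, chr6:126535556-126535805 (minus strand) for *Kcna5*, chr2:55435720-55435969 (plus strand) for *Kcnj3* and chr5:24329592-24329841 (minus strand) for *Kcnh2*. Capitals mark the motifs found.
Kcnd2: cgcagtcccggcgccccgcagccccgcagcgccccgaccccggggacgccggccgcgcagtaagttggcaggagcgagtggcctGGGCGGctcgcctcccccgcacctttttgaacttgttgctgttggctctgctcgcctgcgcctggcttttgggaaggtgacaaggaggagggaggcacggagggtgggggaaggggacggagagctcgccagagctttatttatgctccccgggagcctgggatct
Kcna5: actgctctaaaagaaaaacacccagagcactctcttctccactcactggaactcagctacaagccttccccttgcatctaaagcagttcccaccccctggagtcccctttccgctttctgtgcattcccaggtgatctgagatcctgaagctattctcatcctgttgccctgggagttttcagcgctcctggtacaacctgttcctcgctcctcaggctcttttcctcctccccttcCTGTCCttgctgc
Kcnj3: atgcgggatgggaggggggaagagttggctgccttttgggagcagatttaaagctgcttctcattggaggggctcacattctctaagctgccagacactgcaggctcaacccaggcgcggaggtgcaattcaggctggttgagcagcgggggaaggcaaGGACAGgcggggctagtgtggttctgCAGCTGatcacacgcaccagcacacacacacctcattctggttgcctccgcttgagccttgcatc
Kcnh2: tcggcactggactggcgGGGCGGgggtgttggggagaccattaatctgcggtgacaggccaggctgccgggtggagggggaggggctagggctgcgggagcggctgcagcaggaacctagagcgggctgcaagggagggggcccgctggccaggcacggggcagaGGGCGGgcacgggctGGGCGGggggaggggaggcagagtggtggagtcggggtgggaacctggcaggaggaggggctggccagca

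The motifs were searched on both strands. They were the TATA box TATAAA, the GC box GGGCGG that Sp1 family factors bind, the GATA factor sites TGATAA and AGATAA, the E-box CAGCTG, and CAGCACC and GGACAG, which are the left and right arms of the RE1 element bound by REST, a repressor that works with CoREST and Lsd1. The *Kcnd2* promoter held 1 GC box and 22 CpG dinucleotides at 68.8% GC, and the *Kcnh2* promoter held 3 GC boxes and 14 CpG dinucleotides at 73.6% GC. The *Kcnj3* promoter, at 58.4% GC, held 1 GGACAG and 1 E-box, whereas the *Kcna5* promoter, at 53.2% GC, held 1 GGACAG, printed as its complement CTGTCC. Over the 25 promoters matched to 22 of the 30 genes, GGGCGG stood in 14 (56% of them, against 32.7% of all 32851 promoters in the table), GGACAG in 7 (28%, against 18.7%) and CAGCTG in 8 (32%, against 13%). CAGCACC stood in 0 of the 25 and in 5.73% of all promoters, TATAAA in 1 (4%, against 12.4%, a promoter of *Cacna1d*), TGATAA in 2 (8%, against 7.94%) and AGATAA in 1 (4%, against 9.99%). The median GC content was 62.8% over the promoters of the channel genes and 52.4% over all promoters, and a match of 6 or 7 letters is a description, not a binding site.

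Inward rectifiers hold the resting potential, and those of the G protein-coupled kind slow the pacemaker and shorten the atrial action potential when acetylcholine is released. *Kcnj3* and *Kcnj5* encode the subunits that assemble into the acetylcholine-gated channel. *Kcnj3* measured 5.61, 5.93 and 6.17 in 2lox/2lox hearts, against 6.19, 6.50, 6.29, 6.35 and 6.19 in wild-type hearts. The groups did not overlap, although 2lox/2lox heart 3, at 6.17, lay close below wild-type hearts 1 and 5, at 6.19. The difference was -0.40 ± 0.12 (SE), with an interval of -0.67 to -0.14, or 0.756-fold (limma, adjusted p = 0.281).

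The brightest probe set of its partner *Kcnj5* lay on the other side of 0. It averaged 7.99 ± 0.10 in 2lox/2lox hearts and 7.80 ± 0.17 in wild-type hearts (SD, n = 3 and n = 5), a difference of 0.19 with an interval of -0.03 to 0.41. The other *Kcnj5* probe set gave -0.17, and the average of the 2 gave 0.01, so this contrast with *Kcnj3* rested on 1 probe set. The difference between the subunits' responses was not tested. *Kcnj2* and *Kcnj12*, the pore subunits of the classical inward rectifier current of ventricular muscle, had differences of 0.02 (interval -0.16 to 0.19) and 0.04 (interval -0.19 to 0.27). Both were dim. *Kcnj2* averaged 4.26 in 2lox/2lox and 4.24 in wild-type hearts, close to the lower quartile of all values, 4.21, where probe sets may read background. *Kcnj12* averaged 4.90 and 4.86, below the median of all values, 5.07. Atrial marker genes, which could move with *Kcnj3* and *Kcna5*, had mean deviations from the wild-type average of -0.12, -0.19 and 0.17 in 2lox/2lox hearts, against -0.24 to 0.24 in wild-type hearts, so the groups overlapped in this measure. The part of atrial content in these values was not tested.

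ATP-sensitive potassium channels open when cellular ATP falls, and are built of a pore subunit (*Kcnj8* or *Kcnj11*) and a sulfonylurea receptor (*Abcc8* or *Abcc9*). No gene of this class had an unadjusted p under 0.05 in its brightest probe set. The smallest belonged to *Abcc8*, which measured 6.24, 5.81 and 6.08 in 2lox/2lox hearts, against 5.48, 6.0, 6.04, 5.93 and 5.53 in wild-type hearts. The groups overlapped, and wild-type hearts 1 and 5 were the lowest of all. The difference was 0.24 ± 0.15 (SE), with an interval of -0.09 to 0.58 (limma, adjusted p = 0.613). *Kcnj11*, the pore subunit of ventricular muscle, averaged 9.31 ± 0.03 in 2lox/2lox hearts and 9.32 ± 0.09 in wild-type hearts (SD, n = 3 and n = 5), with an interval of -0.15 to 0.14 around a difference of 0. The brightest probe set of *Abcc9*, the receptor it pairs with there, had a difference of -0.10 (interval -0.35 to 0.15). Its other probe sets gave -0.08 and -0.40, the latter at an unadjusted p of 0.0203 (limma). Averaging the *Abcc9* probe sets gave -0.19.

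*Kcnj8* encodes the pore subunit of vascular cells and averaged 6.57 ± 0.20 in 2lox/2lox hearts and 6.81 ± 0.45 in wild-type hearts (SD, n = 3 and n = 5). Its wild-type hearts ran between 6.24 and 7.43, wider than the whole 2lox/2lox range of 6.40 to 6.79, and the difference was -0.24 (interval -0.73 to 0.25). The 8 markers of pericytes and smooth muscle, cells in which *Kcnj8* is strong, had mean deviations of -0.08 to 0.22 in 2lox/2lox hearts and of -0.43 to 0.34 in wild-type hearts. Their part in the *Kcnj8* values was not tested.

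Delayed rectifiers end the action potential. All 4 genes of this class had values above 0 in the fit of all hearts, with a median difference of 0.26. With the difference between 3′ and 5′ control probe sets as a covariate, all 4 lay nearer to 0. The values were -0.01 for *Kcnq1*, 0.01 for *Kcnh2*, 0.04 for *Kcne3* and 0.21 for *Kcne1*. Among the 2lox/2lox hearts, that fit rests mostly on heart 3. *Kcnh2*, the pore subunit of the rapid current and the ERG channel blocked by many drugs, measured 9.40, 9.54 and 9.11 in 2lox/2lox hearts, against 9.16, 9.14, 9.23, 9.05 and 9.09 in wild-type hearts. 2lox/2lox hearts 1 and 2 lay above all wild-type hearts, whereas 2lox/2lox heart 3 lay inside the wild-type range. The difference was 0.21 ± 0.09 (SE), with an interval of 0.01 to 0.42, or 1.16-fold (limma, adjusted p = 0.434).

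*Kcnq1* and *Kcne1* encode the pore and the accessory subunit of the slow current. *Kcne1* averaged 9.63 ± 0.15 in 2lox/2lox hearts and 9.24 ± 0.47 in wild-type hearts (SD, n = 3 and n = 5), a difference of 0.40 (interval -0.10 to 0.90). Its interval was the widest on the upper side, and wild-type heart 4, at 8.48, lay far below the other wild-type hearts, between 9.17 and 9.73. Without that heart the difference was 0.21. *Kcnq1* had a difference of 0.15 (interval -0.11 to 0.40), and *Kcne3*, another accessory subunit of that family, a difference of 0.31 (interval -0.03 to 0.64).

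Background potassium channels with paired pore domains leak potassium at all voltages. *Kcnk3*, an acid-sensitive channel of this kind, had the smallest p among the genes with higher values. It measured 8.15, 8.29 and 7.90 in 2lox/2lox hearts, against 7.73, 7.55, 7.81, 7.64 and 7.56 in wild-type hearts. Every 2lox/2lox heart lay above every wild-type heart, 2lox/2lox heart 3 by the least. The difference was 0.46 ± 0.10 (SE), with an interval of 0.24 to 0.67, or 1.37-fold (limma, adjusted p = 0.177). The related *Kcnk1* averaged 4.38 ± 0.13 in 2lox/2lox hearts and 4.39 ± 0.03 in wild-type hearts (SD, n = 3 and n = 5), close to the lower quartile of all values on the arrays, 4.21, where probe sets may read background.

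Calcium channels of the T type open at low voltages and serve the fetal ventricle and the nodes. *Cacna1h* and *Cacna1g*, which encode their pore subunits, had values on the same side. *Cacna1h* measured 8.42, 8.60 and 8.05 in 2lox/2lox hearts, against 8.04, 8.06, 7.87, 7.82 and 7.80 in wild-type hearts. 2lox/2lox hearts 1 and 2 lay above all wild-type hearts, and 2lox/2lox heart 3, at 8.05, lay just under wild-type heart 2. The difference was 0.44 ± 0.12 (SE), with an interval of 0.18 to 0.70, or 1.35-fold (limma, adjusted p = 0.25).

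*Cacna1g* measured 6.36, 6.47 and 6.12 in 2lox/2lox hearts, against 6.03, 6.29, 5.86, 5.76 and 6.02 in wild-type hearts. Here too 2lox/2lox heart 3 was the one inside the wild-type range. The difference was 0.32 ± 0.12 (SE), with an interval of 0.06 to 0.59, or 1.25-fold (limma, adjusted p = 0.366).

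*Cacna1d* encodes an L-type channel that opens at lower voltages than the main ventricular one and contributes to sinoatrial pacemaking. It measured 5.81, 5.98 and 5.71 in 2lox/2lox hearts, against 6.18, 6.14, 6.05, 6.08 and 5.97 in wild-type hearts. The groups overlapped only through 2lox/2lox heart 2, at 5.98, and wild-type heart 5, at 5.97. The difference was -0.25 ± 0.08 (SE), with an interval of -0.42 to -0.08, or 0.841-fold (limma, adjusted p = 0.294). The brightest probe sets of the accessory subunits of L-type channels lay near 0, *Cacnb2* with a difference of 0.02 (interval -0.22 to 0.26) and *Cacna2d1* with 0.09 (interval -0.08 to 0.26). Another probe set of *Cacnb2* gave -0.27 and one of *Cacna2d1* gave -0.35, both at an unadjusted p under 0.05, and averaging the probe sets of each gene gave -0.13 and -0.10.

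Few pacemaker, sodium and TRPM genes were among the measured genes, and none of them had an unadjusted p under 0.05 in its brightest probe set. *Hcn2*, which carries part of the hyperpolarization-activated pacemaker current, measured 4.85, 4.84 and 4.86 in 2lox/2lox hearts, against 4.84, 4.80, 4.93, 5.06 and 4.64 in wild-type hearts. The 2lox/2lox values lay in the middle of the wild-type range, and the difference was -0.01 ± 0.09 (SE), with an interval of -0.20 to 0.19 (limma, adjusted p = 0.99). These levels were dim, below the median of all values, 5.07.

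Of the sodium channel genes, *Scn7a*, an atypical channel that senses extracellular sodium, measured 4.61, 4.67 and 4.73 in 2lox/2lox hearts, against 4.99, 4.82, 4.68, 4.63 and 4.89 in wild-type hearts. The groups overlapped, the 3 highest values being those of wild-type hearts 1, 5 and 2. The difference was -0.13 ± 0.09 (SE; limma, adjusted p = 0.643). *Scn4b*, an accessory subunit of voltage-gated sodium channels, had the same difference of -0.13 (interval -0.34 to 0.07). Both genes were dim. They averaged 4.67 in 2lox/2lox hearts, and 4.80 (*Scn7a*) and 4.81 (*Scn4b*) in wild-type hearts, below the median of all values, 5.07.

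Both TRPM genes lay close to 0 in their brightest probe sets. *Trpm7*, a channel for divalent cations fused to a kinase, measured 9.37, 9.61 and 9.48 in 2lox/2lox hearts, against 9.59, 9.75, 9.46, 9.45 and 9.49 in wild-type hearts. The groups overlapped widely, with a difference of -0.06 ± 0.09 (SE; limma, adjusted p = 0.863). *Trpm4*, a calcium-activated cation channel of conduction tissue, averaged 6.46 ± 0.13 in 2lox/2lox hearts and 6.46 ± 0.14 in wild-type hearts (SD, n = 3 and n = 5).

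For 18 of the 29 genes the array carries further probe sets annotated to that gene alone, 33 in all, each dimmer than the probe set used above. The differences of these ran from -0.40 to 0.56, and 24 of the 33 had the sign of the brightest probe set of their gene. Signs were taken after rounding, so *Kcnj11*, rounded to 0 in its brightest probe set, was counted as not matching. 7 had an unadjusted p under 0.05, beside 10.9% of all 45101 probe sets, and the smallest adjusted p was 0.182 (limma). That one belonged to *Kcnd2*, with 4.78, 4.84 and 4.84 in 2lox/2lox hearts, against 5.12, 5.07, 5.13, 5.23 and 5.40 in wild-type hearts. Its groups did not overlap either, and its difference was -0.37 ± 0.08 (SE). The other *Kcnd2* probe sets gave -0.24 and -0.01.

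The probe sets of a gene did not always share a value. All 3 further probe sets of *Kcnj3* lay below 0, at -0.27, -0.25 and -0.06, while the brightest gave -0.40. For *Kcnk3* both further probe sets gave 0.07, against 0.46 for the brightest. For *Cacna1h* the further probe set gave 0.08, against 0.44, and for *Cacna1d* it lay on the other side of 0, at 0.15 (limma, adjusted p = 0.619), against -0.25. *Trpm7* had further probe sets at -0.19, -0.08 and 0.51. The first and last of these had an unadjusted p of 0.0255 and 0.00848 (limma), and the groups of the last did not overlap. *Cacna2d1* had further probe sets at -0.35, -0.25, -0.13 and 0.14. *Kcna5*, *Kcnh2* and *Cacna1g* had 1 probe set each, so no such comparison was possible. Which transcripts each probe set reads is not stated in the sources used here.

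**Figure D3:**
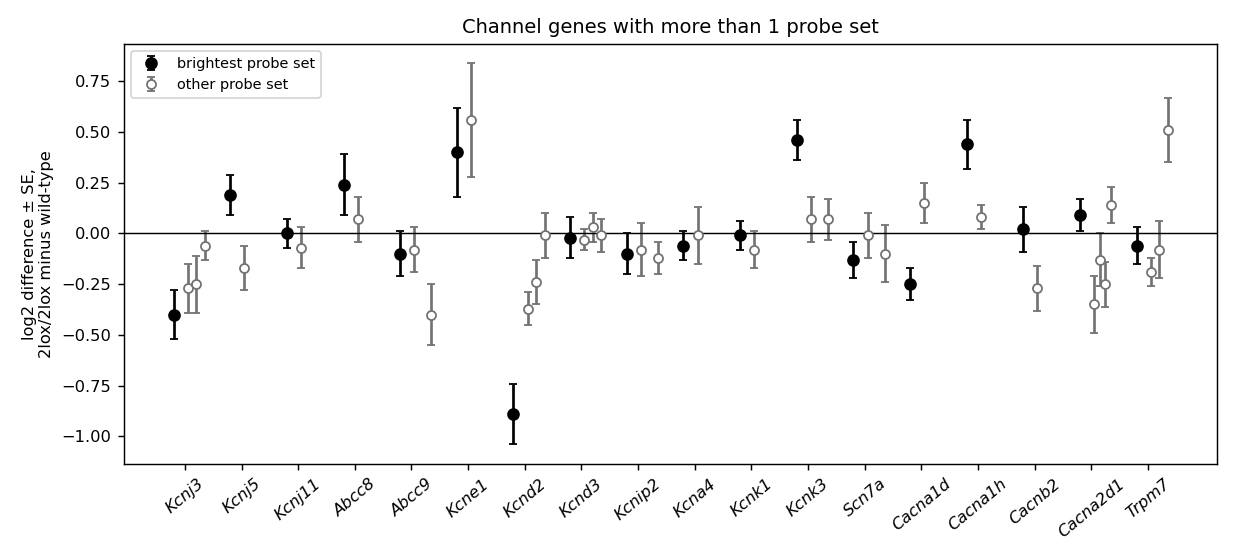
Log2 difference between 2lox/2lox and wild-type hearts (y axis) for each probe set of the 18 channel genes with more than 1 (x axis), with bars of ± 1 SE from the limma fit. Filled points are the brightest probe set and open points the others. The brightest *Kcnd2* probe set lies at -0.89 and the others between -0.37 and -0.01. *Cacna1d*, *Cacnb2*, *Kcnj5*, *Trpm7*, *Cacna2d1* and *Kcnd3* have points on both sides of 0.

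2lox/2lox heart 3 was the 2lox/2lox heart nearest to the wild-type mean for 5 of the 8 genes with an unadjusted p under 0.05, namely *Kcnj3*, *Kcnh2*, *Kcnk3*, *Cacna1g* and *Cacna1h*. It was nearest for 13 of all 29 genes, against 10 for heart 2 and 6 for heart 1. Without it, 4 of the 29 genes passed the test (limma). They were *Kcnk3* (0.56, adjusted p = 0.0212), *Cacna1h* (0.59, adjusted p = 0.0231), *Kcnd2* (-0.89, adjusted p = 0.0425) and *Kcnj3* (-0.54, adjusted p = 0.0493), in a fit in which 797 of all 45101 probe sets and 1.32% of all genes passed. Without 2lox/2lox heart 1 or 2, 0 of the 29 passed. At an unadjusted p under 0.05 there were 6 of the 29 without heart 1 (6.2% of all genes) and 7 without heart 2 (7.83% of all genes). 2lox/2lox heart 3 also differed from its group in the level of Y-linked genes minus *Xist*, at -7.25, against 2.06 and 2.48 in 2lox/2lox hearts 1 and 2, while wild-type heart 2 had -6.98 and the other wild-type hearts 2.16 to 2.68. With this score as a covariate, 8 channel genes had an unadjusted p under 0.05, beside 11.5% of all genes, and 0 passed (limma).

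The remaining 2lox/2lox hearts in that fit were those with the wider 3′ to 5′ difference. With this difference as a covariate, 4 of the 29 channel genes had an unadjusted p under 0.05, beside 3.7% of all genes (limma). All 4 were among the 8 genes of the fit of all hearts: *Kcnd2* at -0.93, *Cacna1d* at -0.33, *Kcnk3* at 0.27 and *Kcna5* at -0.37. The adjusted p was 0.758 for *Kcnd2* and 1 for the other 7 genes. *Kcnk3* was thereby smaller than its 0.46 in the fit of all hearts, and the values of the other 4 were nearer to 0 as well, to -0.18 for *Kcnj3*, 0.21 for *Cacna1h*, 0.17 for *Cacna1g* and 0.01 for *Kcnh2*. The differences of *Kcnd2*, *Cacna1d* and *Kcna5* were about as large with the covariate as without it. Only 2lox/2lox hearts 1 and 2 had the wider difference, so the covariate is largely confounded with genotype. Its fit mostly compares 2lox/2lox heart 3 with the wild-type hearts, and cannot separate RNA quality from genotype.

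**Figure D4:**
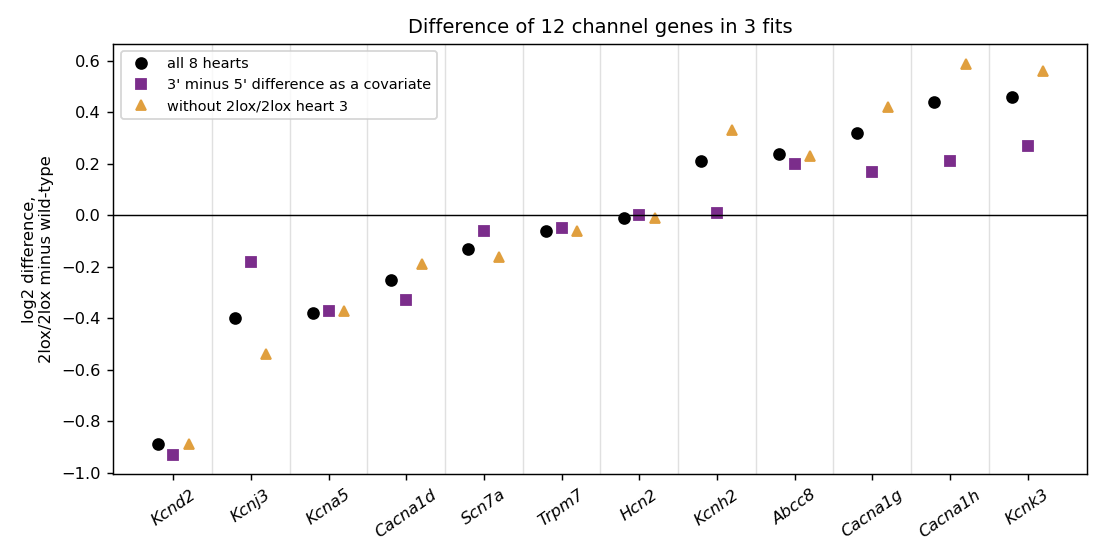
Log2 difference between 2lox/2lox and wild-type hearts (y axis) for the 12 channel genes given heart by heart (x axis). The 3 fits are that of all hearts, that with the gap between 3′ and 5′ control probe sets as a covariate, and that without 2lox/2lox heart 3. *Kcnd2* lies between -0.93 and -0.89 in all 3, while *Cacna1h* lies at 0.44, 0.21 and 0.59.

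Marker genes of other cell types and of the ventricle were read beside these values. None of the 5 ventricular markers passed the adjusted threshold, and their mean deviation was 0.23, 0.30 and 0.13 in 2lox/2lox hearts 1, 2 and 3, against -0.12 to 0.07 in wild-type hearts, with no overlap. 2 of the 5 had an unadjusted p under 0.05, beside 10.2% of all genes, and the groups overlapped for each of the 5. These 2 were the transcriptional regulators *Lbh* (0.51, limma adjusted p = 0.33) and *Irx4* (0.31, adjusted p = 0.426). *Hey2* had a difference of 0.30 (limma, adjusted p = 0.482). *Myl2*, the ventricular myosin light chain, had a difference of 0.01 and *Mybphl* one of -0.03. The 10 myeloid markers were all above 0, 7 of them at an unadjusted p under 0.05 (10.2% of all genes), 3 with groups that did not overlap (5.97% of all genes) and 0 past the adjusted threshold, with mean deviations of 0.24 to 0.57 in 2lox/2lox hearts and -0.20 to 0.17 in wild-type hearts. The means of cardiomyocyte, endothelial, fibroblast, smooth muscle, glial, erythroid and skeletal muscle markers overlapped between the groups. Some single genes of these lists did not overlap, beside 5.97% of all genes. Of the 8 pericyte and smooth muscle markers (25%), *Cnn1* (0.27) and *Cspg4* (0.37) were higher. *Mybpc1* (0.44) of the 7 skeletal muscle markers (14.3%) was higher, and *Tcf21* (-0.45) of the 7 fibroblast markers (14.3%) was lower. None of these passed the adjusted threshold. The part of these markers in the channel values was not tested.

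Other channel genes were counted from a list drawn by family. Of 52 further cardiac and general channel subunits, 44 had a probe set of their own, and 0 passed the test in either direction. 4 of the 44 (9.09%) had an unadjusted p under 0.05, beside 10.2% of all genes. The potassium channel *Kcnk6* (0.29) and the mechanosensitive channel *Piezo1* (0.22) were higher, and the accessory calcium channel subunit *Cacng4* (-0.20) and the cation channel *Trpc1* (-0.17) were lower, with adjusted p between 0.357 and 0.443 (limma).

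Transcription factors that pattern the pacemaker and conduction system were measured for 11 of 12 genes. None passed the test, and 1 of the 11 (9.09%) had an unadjusted p under 0.05, beside 10.2% of all genes. It was *Nkx2-5*, which represses the pacemaker program in working muscle, with a difference of 0.27 (limma, adjusted p = 0.336). The smallest p after it belonged to *Id2*, an inhibitor of helix-loop-helix factors in the conduction system, with a difference of -0.34 (adjusted p = 0.486).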

How the data were processed

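RNA from 3 2lox/2lox and 5 wild-type E18.5 hearts was hybridized to Affymetrix Mouse430 arrays, 1 heart to an array. The values of the 45101 probe sets were deposited as log2 expression levels, which the authors had normalized between arrays (medians 5.03 to 5.10). The method used is not stated in the sources used here, and another treatment of background would change dim probe sets most. No detection calls were used. Precision is limited by the number of arrays, which have no sequencing depth. Groups were taken from the labels, and hearts came from separate embryos.

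The difference between genotypes was fitted by limma 3.58.1 under R 4.3.3, using lmFit and eBayes with neither trend nor robust moderation. Tests were two-sided, adjusted by Benjamini-Hochberg over all 45101 probe sets, with a threshold of 0.05. A gene was represented by its brightest probe set among those annotated to it alone, with names updated through a RefSeq table of GRCm38.p6 (34958 probe sets with 1 gene, of which 99.4% matched, 932 with several and 9211 with none). Heart-by-heart values are given for each gene with an unadjusted p under 0.05 or non-overlapping groups, and otherwise for the gene with the smallest p of its class. From other lists, genes past the threshold or up to 4 with the smallest p are named, and all 5 ventricular markers. Mean deviations of marker lists are averages, over the genes of a list, of each heart's value minus the mean of the wild-type hearts. The genes, classes and lists were chosen with earlier results of these data known. The list of ventricular markers also holds *Mybphl*, which is made mainly in the atria.

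Alternatives were an intensity trend, robust moderation, quantile normalization, median centring, a filter on dim probe sets, weighting of arrays, a block for the replicate number, a covariate (the 3′ minus 5′ difference or a sex score), averaging the probe sets of a gene, and each heart left out in turn. The scripts were tested on simulated data.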

Additional observations from a re-analysis of the deposited data

Results flagged for a closer look

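*Cacna2d1*, which encodes an accessory subunit of L-type calcium channels, measured 8.82 in wild-type heart 4, far from the other wild-type hearts, which lay between 9.07 and 9.11. The gap made up 0.853 of the range of the group, above the limit of 0.71 for 5 samples (Dixon's ratio at 95%). The 2lox/2lox hearts measured 9.20, 9.12 and 9.05. 29 genes were tested in this way, and chance flags about 1 in 20. Wild-type heart 4 had the lowest value of all 8 hearts for 8 of the 29 genes.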

How the results depend on the processing

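The number of channel genes past the adjusted threshold was 0 in the fit of all hearts and 0 under every alternative except leaving out hearts, where it ran from 0 to 4, the 4 arising without 2lox/2lox heart 3. The 8 genes at an unadjusted p under 0.05 became 4 with the 3′ minus 5′ covariate (3.7% of all genes) and 6 to 9 with a heart left out (6.2% to 14.2% of all genes). The 3 genes whose groups do not overlap became 1 when the probe sets of a gene were averaged (*Kcnd2* then had a difference of -0.37, limma adjusted p = 0.17) and 3 to 9 with a heart left out. Groups separate more often with fewer hearts, and the share of all genes whose groups do not overlap was 18.7% without 2lox/2lox heart 3, where the 9 arose, and 9.7% and 11.5% without heart 1 and heart 2. The median difference lay between -0.02 and 0.01 and the count of other channel genes past the threshold at 0 to 0 with a heart left out. *Hcn2*, at -0.01, turned to 0 with the covariate and to 0.04 at most with a heart left out (-0.06 at the lowest), and *Trpm7*, at -0.06, to 0.05 when probe sets were averaged. *Kcnd2*, *Kcna5* and *Kcnk3* kept their direction and an unadjusted p under 0.05 in 18 of 18 alternatives. The cause of these shifts was not tested.

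With the replicate block, 0 of all 45101 probe sets and 0 channel genes passed, and 10 channel genes had an unadjusted p under 0.05, beside 7.23% of all genes. Hearts with the same number did not deviate together over all probe sets (correlations of 0.01, -0.08 and -0.05). Whether hearts with the same number shared a litter was not tested, as litters are not stated.

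Limits are the 3 2lox/2lox hearts, of which 2 had a wider 3′ to 5′ difference, the absence of detection calls, and values without absolute scale between probe sets. The filter on dim probe sets left 23 of the 29 genes.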
